A study of Mus musculus with 12 samples.

Results

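Phospholipid flippases are P4-ATPases, pumps that use ATP to move phospholipids from the outer or luminal leaflet of a membrane to its cytosolic leaflet. Most of them leave the endoplasmic reticulum and work only when bound to a small TMEM30 (CDC50) subunit, and by keeping phosphatidylserine on the inside they stop the cell from showing the lipid that macrophages take as an eat-me signal and that supports clotting. Scramblases undo the asymmetry, and ABC transporters move lipids the other way. The genes described here are 8 P4-ATPases (Atp8a1, Atp8b2, Atp8b4, Atp8b5, Atp9a, Atp9b, Atp11a and Atp11b) and the shared subunit Tmem30a, 9 of the 19494 genes that the arrays measured under a symbol. The family was picked on 2 measured values, the difference of Atp8b4 between stem cells and progenitors and the difference of Atp8b5 between genotypes. These 2 differences, and others that share arrays with them, are therefore given as descriptions without a test. The other 7 genes are members by family.

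The cells were sorted from untreated mouse bone marrow. Knockout mice (KO) were Nfat5 fl/fl Vav-Cre, and control mice (WT) were Nfat5 +/+ Vav-Cre, so both carried the Cre, which Vav drives in blood cells. NFAT5 is a transcription factor best known for the response to osmotic stress. The labels used here name no age, sex or strain background. Within the lineage-negative Sca-1+ Kit+ compartment, haematopoietic stem cells (HSC) were CD48-CD150+ and multipotent progenitors (MPP) were CD48+CD150-. Each of 3 KO mice (2, 11 and 70) and 3 WT mice (3, 12 and 64) gave 1 HSC and 1 MPP array, so 12 arrays fall into 4 groups of 3, and precision is limited by that number of arrays.

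Values are log2 intensities, so a difference of 1 means a doubling of signal, and levels of different genes are not compared because each has its own probes. Array medians lay between 5.81 and 5.91. Genes in the lowest 25% of mean value, under 4.96, were left out of the tests, and all 9 flippase genes passed that filter. Atp8b5 did so through its WT HSC arrays, with means of 5.04 in KO HSC, 4.80 in WT MPP and 4.91 in KO MPP. Atp8b4 had means of 5.04 in WT HSC and 5.23 in KO HSC, close to that value, and 9.79 in either MPP group. The sort genes followed the gates, with Slamf1 (CD150) at 8.04 in WT HSC and 5.80 in WT MPP, and Cd48 at 5.74 and 8.55. Nfat5 lay between 7.34 and 7.89 in KO HSC and between 8.27 and 8.99 in WT HSC, and between 6.99 and 7.45 in KO MPP and 7.82 and 8.28 in WT MPP. Deviations from the group mean had an SD of 0.438 on 1 array, from HSC of KO mouse 2, against 0.276 to 0.378 on the other 11. In sorted bulk cells, fewer cells of a type and less RNA per cell cannot be told apart.

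**Figure D1:**
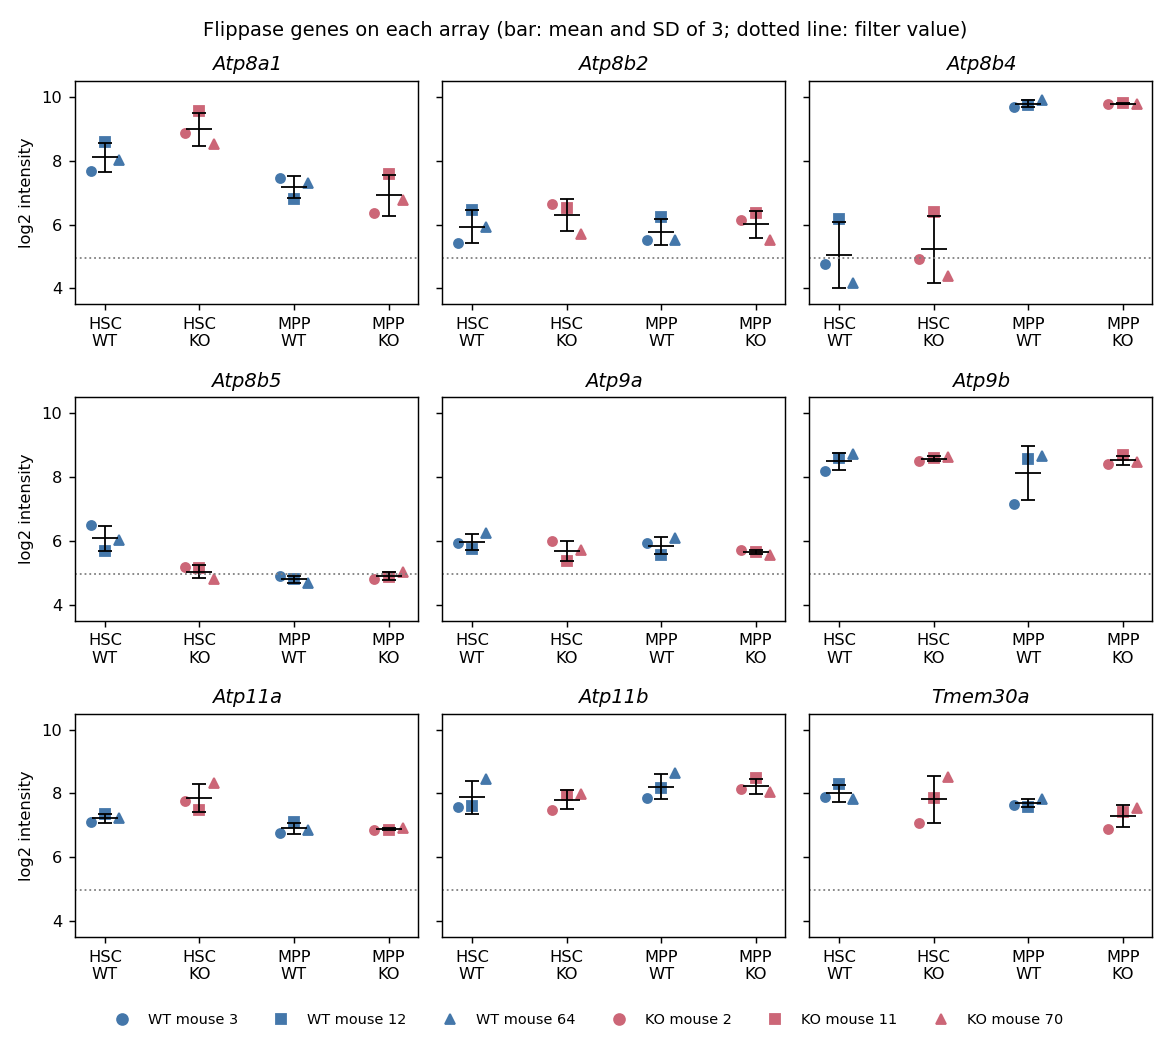
Log2 intensity of the 9 flippase genes (vertical axis) on each array, by group (horizontal axis), with WT in blue, KO in red and 1 symbol per mouse, the mean and SD of 3 arrays as bars and the filter value of 4.96 as a dotted line. Atp8b4 lies at 9.70 or above on every MPP array and at 6.40 or below on every HSC array, and Atp8b5 reaches 5.69 or more only in WT HSC.

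Atp8b4 was the flippase gene with the widest range over the arrays. It encodes a P4-ATPase of the class that also holds Atp8b1 and Atp8b2. In MPP it read 9.70, 9.75 and 9.92 in WT mice 3, 12 and 64 and 9.78, 9.82 and 9.78 in KO mice 2, 11 and 70, an even level with an SD of 0.12 in WT and 0.024 in KO (n = 3). In HSC it read 4.77, 6.19 and 4.17 in the WT mice and 4.91, 6.40 and 4.38 in the KO mice. HSC and MPP values did not overlap, as for 4.21% of all genes over both genotypes. The difference of HSC from MPP was -4.75 in WT (SE 0.53) and -4.56 in KO (SE 0.53), the measured signal in HSC being 3.72% and 4.23% of that in MPP. This is the difference for which the gene was chosen. Within the 6 mice, on the same arrays as that choice, it ranged from -5.76 in WT mouse 64 to -3.42 in KO mouse 11. On 4 of the 6 HSC arrays the signal lay under 4.96, a level at which detection above background was not shown, so the true difference there can be larger.

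The HSC level of Atp8b4 was uneven in the same way in both genotypes, with 1 high array (WT mouse 12 and KO mouse 11) and 2 low ones. Those 2 high arrays were also the ones with the highest mean of 11 stem cell markers in their group (7.94 and 7.95, against 7.33 to 7.69 on the other HSC arrays) and with the lowest mean of 6 progenitor markers in their group (5.76 in WT mouse 12, against 5.84 and 6.30 in the other WT mice, and in KO mouse 11 a lower mean than the 6.29 and 6.63 of the other KO mice). The mean of Kit and Ptprc, markers of blood progenitors, was also highest in their group on them (9.44 and 9.91). The mean of 9 mature neutrophil markers was 7.70 and 7.81 on them, and 8.07 and 6.36 on the HSC arrays of WT mouse 3 and KO mouse 2. It was 5.93 and 5.64 on those of WT mouse 64 and KO mouse 70, where Atp8b4 was lowest. The MPP arrays of mice 64 and 70 also had the lowest neutrophil mean in their group (4.83 and 5.89), but Atp8b4 read 9.92 and 9.78 there. Markers of other lineages also differed between the populations, over both genotypes by limma. Of 6 B cell markers 4 were lower in HSC (median -0.82), and of 7 monocyte and macrophage markers 3 (median -0.60). Of 4 mast cell and basophil markers 1 was lower, Cpa3, at -0.86 (median -0.48). Of 4 T and NK cell markers 1 was lower, Nkg7, at -2.18, while the median of that list was -0.03. Of the neutrophil, the erythroid and the plasmacytoid and dendritic cell markers 0 passed. The mean of all 7 measured B cell markers ranged from 5.83 to 6.10 in HSC and from 6.61 to 7.18 in MPP, and that of the 7 monocyte and macrophage markers from 5.68 to 6.62 and from 6.54 to 7.23. Whether the signal of these markers came from other cell types or from the sorted cells themselves was not tested. Any part of other cell types in the Atp8b4 signal was not tested either. Between genotypes Atp8b4 stood at 0.19 in HSC (95% confidence interval -0.99 to 1.36) and at 0.00 in MPP (-1.18 to 1.17).

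The genes whose profile over the 12 arrays lay closest to that of Atp8b4, each centred on its own mean, were Bex6, with a root mean square difference of 0.495, the tetraspanin Cd53 (0.726), the single-stranded RNA sensor Tlr7 (0.867), BC035044 (0.883) and Tespa1, a protein of T cell receptor signalling (1.01). Over all genes tested the median of this measure was 2.45. Bex6 read 5.16 in WT HSC, 5.30 in KO HSC, 9.64 in WT MPP and 9.32 in KO MPP, with the same order of populations as Atp8b4. Its values, like those of the other 4, come from the same arrays and describe likeness only.

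Atp8b5 showed a single high group. It encodes a flippase known from testis, where it is part of acrosome formation. It read 6.50, 5.69 and 6.04 in the HSC of WT mice 3, 12 and 64, and 5.17, 5.14 and 4.80 in the HSC of KO mice 2, 11 and 70. Every WT HSC array lay above every KO HSC array, and 8.87% of all genes had no overlap in that comparison. MPP values were 4.90, 4.81 and 4.69 in WT and 4.80, 4.88 and 5.03 in KO, so that 6 of the 9 arrays outside WT HSC lay under 4.96, a level at which detection was likewise not shown. The KO to WT difference in HSC was -1.04 (SE 0.20), a KO signal at 48.7% of WT. This is the difference for which the gene was chosen. It ranged from -1.23 without WT mouse 12 to -0.83 without WT mouse 3. In MPP, where 5 of 6 arrays lay under 4.96, the difference was 0.10 (SE 0.20) with overlapping groups, and no test is given for it.

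The population difference of Atp8b5 shares its WT HSC arrays with that choice and has no test either. It was 1.27 in WT mice (1.60, 0.88 and 1.34 in mice 3, 12 and 64) and 0.13 in KO mice (0.37, 0.26 and -0.23 in mice 2, 11 and 70). These differences rest on the HSC values for which the gene was chosen. The genotype difference in HSC less that in MPP came to -1.14 (SE 0.29). Its closest profiles were those of Neil2, a DNA glycosylase (root mean square difference 0.232), Inca1, an inhibitor of cyclin-dependent kinases (0.234), Abcb4, a transporter that moves phosphatidylcholine outward (0.242), the forkhead factor Foxn3 (0.266) and the scaffold protein Ksr1 (0.269), beside a median of 0.615 over all genes. Abcb4 read 6.47 ± 0.71 in WT HSC, 5.70 ± 0.12 in KO HSC, 5.44 ± 0.13 in WT MPP and 5.44 ± 0.23 in KO MPP (SD, n = 3). Its difference between genotypes in HSC, -0.77 (SE 0.29), did not pass (adjusted p = 0.753 by limma). Abcb4 is named here for its likeness to Atp8b5 on the same arrays, so nothing is read from that difference.

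Atp8b4 and Atp8b5 are the members whose values led to the family, and the DNA just upstream of their start sites is shown because the knockout removes a transcription factor. The 250 bases before each start are from RefSeq on build GRCm38.p6, 5′ to 3′ on the strand of the gene, Atp8b4 at chr2:126491554-126491803 on the minus strand and Atp8b5 at chr4:43266909-43267158 on the plus strand. Capitals mark TGGAAA, the core of the site that NFAT5 and other NFAT factors bind, and GAGGAAGT, an ETS site of the PU.1 type, on either strand.
Atp8b4: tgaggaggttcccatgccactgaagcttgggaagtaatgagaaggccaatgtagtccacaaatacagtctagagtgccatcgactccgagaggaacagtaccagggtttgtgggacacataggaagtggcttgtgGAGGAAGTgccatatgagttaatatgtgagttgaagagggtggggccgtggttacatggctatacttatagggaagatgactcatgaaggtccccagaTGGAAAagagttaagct
Atp8b5: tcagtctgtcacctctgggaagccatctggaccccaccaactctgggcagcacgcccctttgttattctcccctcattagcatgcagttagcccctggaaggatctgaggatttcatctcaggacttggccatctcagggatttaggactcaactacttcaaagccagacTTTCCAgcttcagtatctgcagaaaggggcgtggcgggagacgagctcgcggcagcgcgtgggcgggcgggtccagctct
TGGAAA occurred once in each, 17 to 12 bases before the start of Atp8b4 and, on the opposite strand, 80 to 75 bases before that of Atp8b5. It was present in 18.6% of all 32851 windows of this length. GAGGAAGT occurred once before Atp8b4, 115 to 108 bases from the start, and in 2.44% of all windows. The 2 motifs share no base in these windows. A longer pattern was also searched: TGGAAA, a short gap of any bases, then C or T, a fixed G, and C or T. It was in neither window and in 0.831% of all. That pattern was not checked against published forms of the tonicity-responsive element of NFAT5, and those forms were not searched. Neither the share of that element nor its absence from these windows is therefore shown. Among the other members, 6 had windows in the table, and neither TGGAAA nor GAGGAAGT was found in them. A match of letters is a description and not a bound site.

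Among the 7 members that were not chosen by their values, Atp8a1 and Atp11a were higher in HSC than in MPP. Over both genotypes 2 of these 7 passed, in a comparison in which 4.85% of all 14620 genes passed. In KO mice the same 2 of 7 passed beside 1.26% of all genes, and in WT mice 0 of 7 passed beside 2.07%, Atp8a1 having an unadjusted p of 0.0308 there. With Atp8b4 and Atp8b5 counted, the numbers of members past the threshold were 4, 3 and 2 of 9, and nothing is read from those. The median difference of HSC from MPP over the 7 members was 0.23 over both genotypes, against 0.05 for all genes.

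Atp8a1, a flippase that moves phosphatidylserine to the cytosolic leaflet, read 7.67, 8.60 and 8.04 in the HSC of WT mice 3, 12 and 64 and 8.86, 9.56 and 8.53 in the HSC of KO mice 2, 11 and 70. In MPP it read 7.46, 6.79 and 7.30 in WT and 6.36, 7.60 and 6.78 in KO. All 6 HSC arrays lay above all 6 MPP arrays, which held for 4.21% of all genes. HSC exceeded MPP by 1.495 over both genotypes (SE 0.26, 95% confidence interval 0.92 to 2.08, adjusted p = 0.00794 by limma), a signal 2.82 times as high. WT values did not overlap between populations either, which held for 21.3% of all genes. The difference was 2.07 in KO (SE 0.37, adjusted p = 0.0239 by limma) and 0.92 in WT (SE 0.37, adjusted p = 0.294 by limma). It was positive in 6 of 6 mice, and a two-sided exact permutation test that flips signs within 6 mice gave p = 0.0312, the smallest it can give. The difference between these population differences, 1.14 (SE 0.53), did not pass (adjusted p = 0.9996 by limma). The call over both genotypes was lost without WT mouse 12 (adjusted p = 0.0525 by limma). The call in KO was lost without KO mouse 2 (adjusted p = 0.161), without its HSC array alone (0.0626), without KO mouse 70 (0.0913), without WT mouse 64 (0.0658) and with only the arrays compared (0.113).

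Atp11a, a flippase of the plasma membrane for phosphatidylserine and phosphatidylethanolamine that caspases can inactivate, read 7.09, 7.37 and 7.22 in WT HSC and 7.77, 7.48 and 8.33 in KO HSC (mice in the same order as above). In MPP it read 6.77, 7.10 and 6.84 in WT and 6.86, 6.87 and 6.92 in KO. KO HSC was the highest of the 4 groups. It overlapped neither KO MPP, as was also so for 17.1% of all genes, nor WT HSC, as for 8.87% of all genes. HSC exceeded MPP by 0.65 over both genotypes (SE 0.14, 95% confidence interval 0.33 to 0.97, adjusted p = 0.0265 by limma), by 0.98 in KO (SE 0.20, adjusted p = 0.0485) and by 0.32 in WT (SE 0.20, adjusted p = 0.532). It was higher in HSC in 6 of 6 mice (p = 0.0312 by the exact permutation test). The call in KO was lost with the mouse as a block (adjusted p = 0.0855 by limma), without any 1 of the mice (0.0834 to 0.207) and without the HSC array of KO mouse 2 (0.0985). It was also lost without a filter (0.0522), with trended and robust moderation (0.0717), with array weights (0.0545) and with only the arrays compared (0.198). The call over both genotypes was lost without any 1 mouse except KO mouse 11 (adjusted p between 0.0567 and 0.125, and 0.0320 without KO mouse 11).

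**Figure D2:**
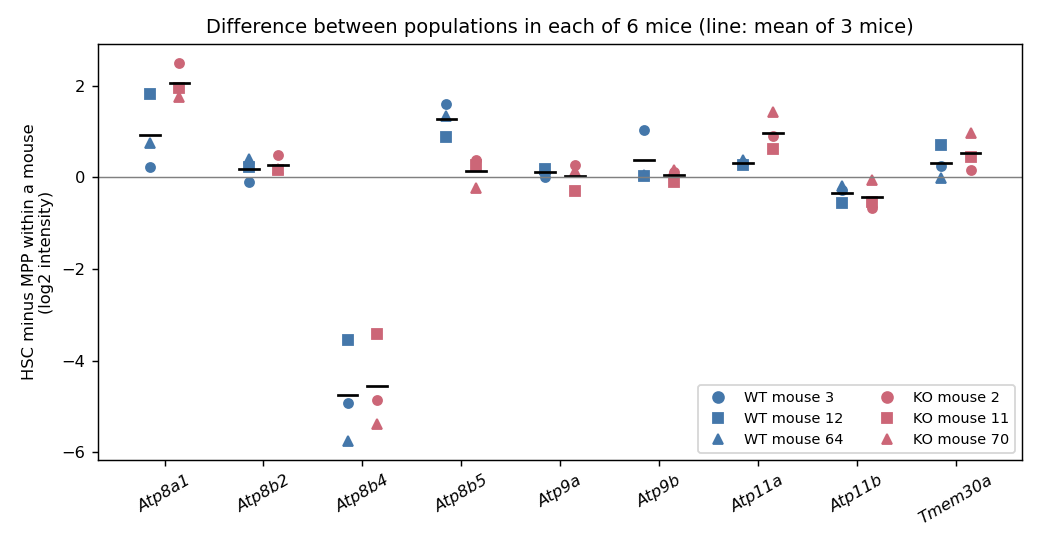
Difference of HSC from MPP within each mouse (vertical axis, log2 intensity) for the 9 flippase genes (horizontal axis), with WT mice in blue, KO mice in red and the mean of 3 mice as a line. Atp8a1 and Atp11a lie above 0 and Atp8b4 and Atp11b below 0 in all 6 mice.

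Atp11b went the other way by a smaller amount. It encodes a flippase of recycling endosomes and the trans-Golgi network. In HSC it read 7.56, 7.60 and 8.46 in WT mice 3, 12 and 64 and 7.47, 7.96 and 7.99 in KO mice 2, 11 and 70, and in MPP 7.85, 8.17 and 8.63 in WT and 8.13, 8.50 and 8.05 in KO. HSC lay below MPP within every mouse, from -0.67 to -0.06 (p = 0.0312 by the exact permutation test), while the mean difference of -0.38 (SE 0.20) did not pass over all genes (adjusted p = 0.325 by limma). KO HSC and KO MPP values did not overlap, which was also the case for 17.1% of all genes. WT HSC and WT MPP values overlapped.

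Tmem30a, the subunit that most P4-ATPases need, read 7.89, 8.30 and 7.82 in the HSC of WT mice and 7.06, 7.87 and 8.51 in the HSC of KO mice. In MPP it read 7.65, 7.59 and 7.83 in WT and 6.89, 7.43 and 7.55 in KO. HSC exceeded MPP in 5 of 6 mice, by 0.42 on average (SE 0.23, adjusted p = 0.337 by limma, exact permutation p = 0.0625). In MPP every KO array lay below every WT array, at a difference of -0.40 (SE 0.32) that did not pass (adjusted p = 0.9999 by limma). Groups that did not overlap were found for 9.49% of all genes in that comparison. In HSC the genotypes overlapped, with the lowest and the highest array both from KO mice.

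The remaining 3 members differed little between populations. Atp8b2, a flippase for phosphatidylcholine, ranged from 5.42 to 6.63 over the 12 arrays, with HSC above MPP by 0.22 (SE 0.24, adjusted p = 0.645 by limma) and in 5 of 6 mice (exact permutation p = 0.0625). Atp9a and Atp9b differ from the rest of the family in working without a TMEM30 subunit, in endosomes and the trans-Golgi network. Atp9a ranged from 5.36 to 6.25 and differed by 0.08 (SE 0.15, adjusted p = 0.794, exact permutation p = 0.375). Atp9b lay between 8.20 and 8.71 on 11 arrays and at 7.17 on the MPP array of WT mouse 3. Its difference of 0.21 (SE 0.23, adjusted p = 0.646, exact permutation p = 0.156) stood at 0.049 without that mouse. The exact tests were made for 7 members, and with 7 tests none would stay under 0.05 after a correction for their number.

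The comparison of KO with WT asked what loss of NFAT5 changes in each population. None of the 7 members not chosen by value passed in HSC or in MPP by limma, where 0% of all genes passed in either, with 919 of 14620 genes in HSC and 466 in MPP at an unadjusted p under 0.05. Of those 7, Atp11a and Atp8a1 had an unadjusted p under 0.05 in HSC, both with the higher value in KO, and 0 had in MPP. Atp11a stood at 0.63 in HSC (SE 0.20, 95% confidence interval 0.19 to 1.08, adjusted p = 0.666 by limma) and at -0.02 in MPP (SE 0.20). Atp8a1 stood at 0.88 in HSC (SE 0.37, 95% confidence interval 0.06 to 1.70, adjusted p = 0.790) and at -0.27 in MPP (SE 0.37). On the same HSC arrays 7 of 8 tested neutrophil markers stood below 0 in KO, as did 46.6% of all genes, with a median of -0.93 and 0 passing. The mean of the 9 measured ones overlapped between genotypes. It was 8.07, 7.70 and 5.93 in WT mice 3, 12 and 64 and 6.36, 7.81 and 5.64 in KO mice 2, 11 and 70. The part of these markers in the values of Atp11a and Atp8a1 was not tested.

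For the other members, intervals included 0 in both populations. In HSC they stood at 0.35 for Atp8b2 (SE 0.35), -0.28 for Atp9a (SE 0.21), 0.08 for Atp9b (SE 0.33), -0.07 for Atp11b (SE 0.28) and -0.19 for Tmem30a (SE 0.32). In MPP they stood at 0.25 for Atp8b2, -0.20 for Atp9a, 0.40 for Atp9b and 0.01 for Atp11b, with adjusted p of 0.9999 each by limma. The value of Atp9b in MPP rests on the low array of WT mouse 3 and was -0.09 without that mouse. Tmem30a in HSC stood at 0.18 without KO mouse 2.

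An interaction term compared the genotype difference in HSC with that in MPP, and 0 of 14620 genes passed by limma and 658 had an unadjusted p under 0.05. Of the members, Atp11a had an interaction of 0.66 (SE 0.29, unadjusted p = 0.0433, adjusted p = 0.9996), and the other 6 of the 7 not chosen by value had the same adjusted p. The median over those 7 was 0.10, against 0.01 for all genes. Both genotype comparisons and both population comparisons use the same 12 arrays, so the values of a gene in them are not independent of each other.

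**Figure D3:**
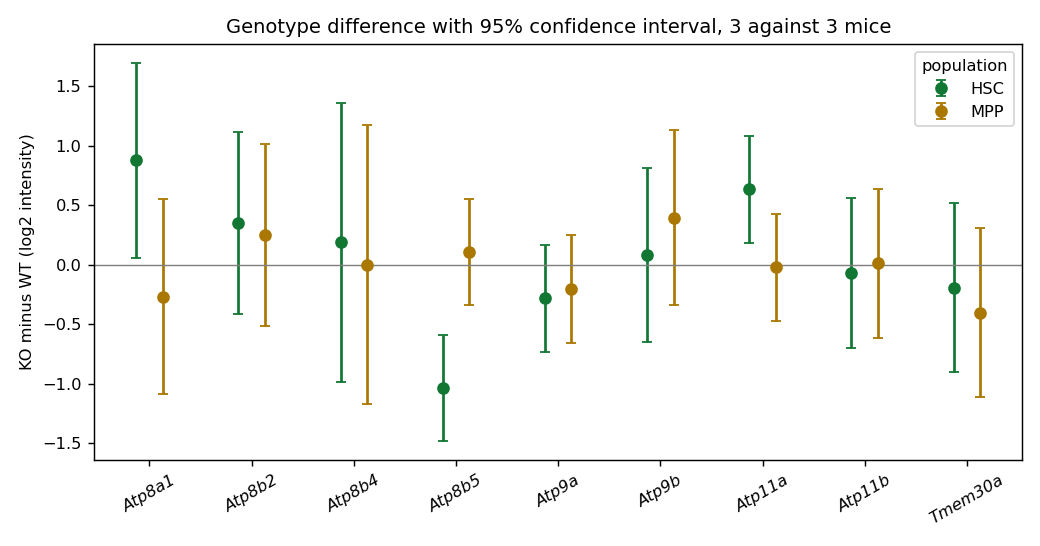
Difference of KO from WT (vertical axis, log2 intensity) for the 9 flippase genes (horizontal axis) in HSC and in MPP, with 95% confidence intervals from the fit that are not adjusted for the number of genes. The HSC intervals of Atp8b5 (-1.48 to -0.59), Atp8a1 and Atp11a lie to one side of 0, and no MPP interval does. Atp8b5 was chosen for this difference, so its interval is not a test.

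Related genes were described from lists of the same pathway. Of 9 further P4-ATPases and TMEM30 subunits, 8 were measured and 6 passed the filter, and 0 passed in any of the 6 comparisons. The closest was Atp10a, a flippase for phosphatidylcholine, at 7.80 ± 0.25 in WT HSC, 7.18 ± 0.39 in KO HSC, 8.26 ± 0.090 in WT MPP and 7.91 ± 0.40 in KO MPP (SD, n = 3), with HSC below MPP by -0.59 (SE 0.17, adjusted p = 0.0837 by limma). The 6 genes had a median difference of -0.04 over both genotypes.

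Of 13 genes of scramblases and their partner subunits (Bsg and Nptn) that passed the filter 1 was called, beside 4.85% of all genes over both genotypes and 2.07% in WT. Plscr4, of the phospholipid scramblase family, read 6.64 ± 0.22 in WT HSC, 6.44 ± 0.56 in KO HSC, 5.13 ± 0.36 in WT MPP and 5.44 ± 0.22 in KO MPP (SD, n = 3). It was higher in HSC by 1.26 over both genotypes (SE 0.20, adjusted p = 0.00425 by limma) and by 1.51 in WT (SE 0.28, adjusted p = 0.0220), the latter lost with the mouse as a block (adjusted p = 0.0524) and without WT mouse 3 (0.190), 12 (0.0901) or 64 (0.149). In KO the difference of 1.01 (SE 0.28) did not pass (adjusted p = 0.134 by limma). The median of the 13 was 0.15. Between genotypes the lowest p in HSC was that of Tmem41b, a scramblase of the endoplasmic reticulum, at -0.73 (SE 0.29, adjusted p = 0.776), and in MPP that of the autophagy scramblase Atg9a at 0.56 (SE 0.32, adjusted p = 0.9999).

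Of 7 outward lipid transporters, of 3 genes of phosphatidylserine synthesis and decarboxylation, of 6 trafficking partners of flippases and of 13 P-type ATPases of other classes, 0 passed in any comparison. Their median differences of HSC from MPP over both genotypes were 0.13, 0.67, 0.04 and 0.18, against 0.05 for all genes. Within them the lowest p in that comparison belonged to Abcb4 at 0.64 (SE 0.21, adjusted p = 0.115 by limma), to Pisd, the decarboxylase that makes phosphatidylethanolamine from phosphatidylserine, at 0.67 (SE 0.26, adjusted p = 0.182), to the GTPase Arl1 at -0.53 (SE 0.39, adjusted p = 0.475) and to Atp13a3, a polyamine transporter, at -0.52 (SE 0.15, adjusted p = 0.0831). For KO against WT in HSC the 6 trafficking partners had a median of -0.32, against 0.02 for all genes, and all stood below 0, as did 46.6% of all genes. None passed, the guanine nucleotide exchange factor Arfgef2 standing at -0.39 (SE 0.25, adjusted p = 0.893).

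Of 7 phosphatidylserine receptors and bridging proteins that passed the filter 1 was called over both genotypes, beside 4.85% of all genes. Pros1, the plasma protein S that bridges phosphatidylserine to the TAM receptors, read 7.26 ± 1.28 in WT HSC, 7.26 ± 0.20 in KO HSC, 5.77 ± 0.22 in WT MPP and 5.73 ± 0.24 in KO MPP (SD, n = 3). It was higher in HSC by 1.51 over both genotypes (SE 0.34, adjusted p = 0.0287 by limma). In neither genotype alone did it pass, at 1.49 in WT (adjusted p = 0.179 by limma) and 1.53 in KO (0.194). The call over both genotypes was lost without KO mouse 2 (adjusted p = 0.0929), its HSC array alone (0.0630), KO mouse 11 (0.110), KO mouse 70 (0.0909) or WT mouse 12 (0.0729). All 7 stood above 0, as did 57.2% of all genes, with a median of 0.16 against 0.05.

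**Figure D4:**
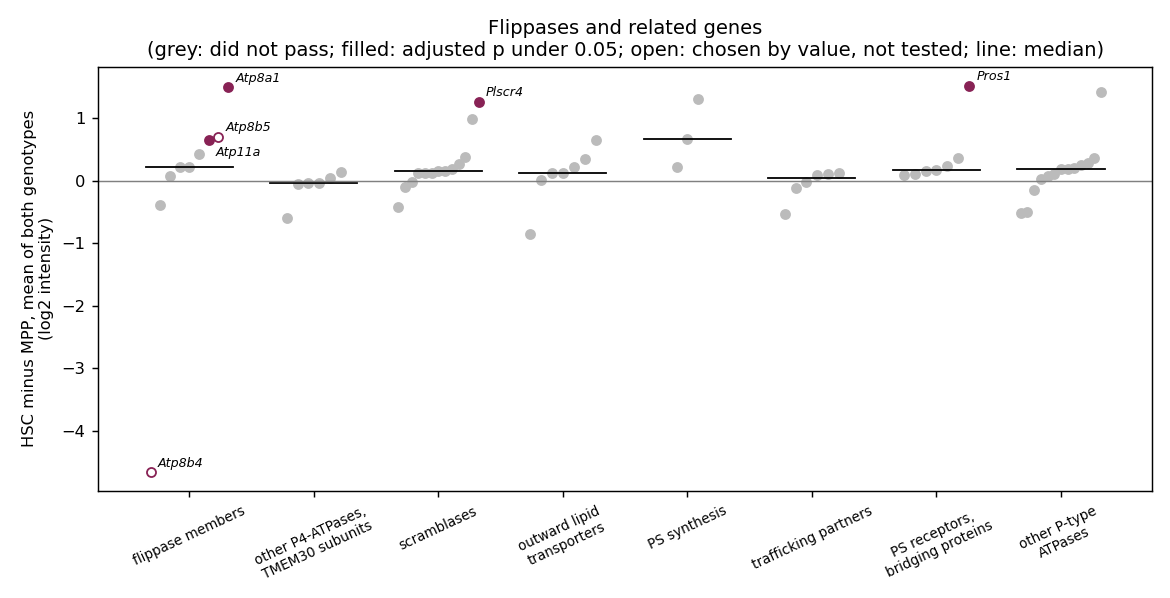
Difference of HSC from MPP over both genotypes (vertical axis, log2 intensity) for the flippase genes and each list of related genes that passed the filter (horizontal axis), with the median as a line. Filled symbols passed the test (Atp8a1, Atp11a, Plscr4 and Pros1), open ones are Atp8b4 and Atp8b5, chosen by value, and grey ones did not pass.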

How the data were processed

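The authors deposited 1 log2 intensity for each probe set and array. RMA and limma are named, without versions, in the list of tools per the submitters' processing notes. Per the labels' protocols, 300 pg of RNA per sample was amplified and labelled with NuGEN kits. RMA brings all arrays to 1 distribution, so a shift of all genes is removed, and small differences of weak genes can be compressed. Of 22142 probe sets 19527 had 1 gene symbol, 0 several and 2615 none; the symbols were updated through a GRCm38.p6 table, in which all 19527 matched. The probe set with the highest mean was kept per gene (33 genes had several, no flippase did). That left 19494 genes, of which 14620 were tested.

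All 12 arrays were fitted as 4 group means across all genes (R 4.3.3, limma 3.58.1, statmod 1.5.0), with two-sided moderated tests and Benjamini-Hochberg adjustment over all genes, and genes passed at an adjusted p under 0.05. The fit was tested on simulated data. The labels name the mouse of each array, which pairs HSC with MPP. Deviations from the group means correlated with r of 0.032 to 0.091 within a mouse, and the mouse entered as a block as an alternative (fixed within mice, random for KO against WT, consensus correlation 0.0723).

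The members and the lists were chosen with earlier results of these data known. Named are all members, the called or lowest-p gene of each list, and the 5 profiles closest to Atp8b4 and to Atp8b5. The separate animals, 3 per genotype, are the replicates. Alternatives left out each mouse, left out 1 HSC array, used only the arrays compared, changed the filter, averaged probe sets, normalized by quantiles again, weighted arrays, or used trended and robust moderation.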

Additional observations from a re-analysis of the deposited data

Results flagged for a closer look

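The HSC to MPP difference of Atp9b was 1.03 in WT mouse 3 and between -0.09 and 0.16 in the other 5 mice, a gap of 0.777 of the whole range over 6 mice. It comes from the MPP array of that mouse, which read 7.17 where the other 11 arrays read 8.20 to 8.71. Of 9 members 1 was marked in this way, and chance marks about 1 in 20 such sets.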

How the results depend on the processing

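Over the 6 comparisons, 57 differences of the members and of the called Plscr4 and Pros1 were recomputed 821 times in all: 745 values kept direction and side of the threshold, 39 lost the threshold, 0 gained it and 37 turned direction, 0 of the latter from a difference that had passed. Most of the 57 differences had not passed in the main fit, and most of the 745 are such differences that again did not pass. All 39 losses fall on the few that had passed, so the 745 do not measure how stable the calls were. The number of members past the threshold in WT HSC against MPP fell from 2 to 1 with the 50% filter, which left out Atp8b5, and with only the arrays compared, and was 1 to 2 without a mouse. In KO it fell from 3 to 1 with only the arrays compared and when KO mouse 2 lost its HSC array, and was 1 to 2 without a mouse; over both genotypes it was 2 to 3, against 4. These counts include Atp8b4 and Atp8b5, chosen by value, so they describe the fits and support nothing. In KO the count was 2 without a filter, with trended and robust moderation and with array weights, as Atp11a was lost. The cause was not tested. With the replicate block 180 genes instead of 302 passed in WT and 113 instead of 184 in KO, with 2 members in each; it changed no member's call beyond those given above and that of Atp8b5 over both genotypes.

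Differences that turned were small. For HSC against MPP in KO, Atp9a stood at -0.017 after the second normalization, -0.010 with array weights and -0.114 when KO mouse 2 lost its HSC array, and between -0.080 and 0.207 without a mouse. For KO against WT in HSC, without that array Atp11b stood at 0.100 and Tmem30a at 0.184. Without a mouse the ranges were -0.396 to 0.763 for Atp8b4, -0.071 to 0.184 for Atp9b, -0.226 to 0.222 for Atp11b and -0.542 to 0.184 for Tmem30a. In MPP the second normalization gave 0.011 for Atp8b4 and 0.001 for Atp11a, and array weights -0.056 for Atp11b. Without a mouse the ranges were -0.614 to 0.009 for Atp8a1, -0.047 to 0.066 for Atp8b4, -0.086 to 0.657 for Atp9b, -0.090 to 0.074 for Atp11a and -0.172 to 0.221 for Atp11b. In the interaction Atp11b stood at 0.026 with array weights and 0.089 without that HSC array, and Atp8b2 at -0.071 without it. Without a mouse the ranges were -0.040 to 0.215 for Atp8b2, -0.381 to 0.782 for Atp8b4, -0.200 to 0.086 for Atp9a, -0.489 to 0.015 for Atp9b, -0.263 to 0.041 for Atp11b and -0.010 to 0.406 for Tmem30a. Signal near 4.96 limits Atp8b4 in HSC and Atp8b5 outside WT HSC.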
